A study of Mus musculus with 6 samples.

Results

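Troponin and tropomyosin are the regulatory proteins of the thin filament. The 8 genes described here were chosen by name: the troponins Tnnt2, Tnni1, Tnni3 and Tnnc1, and the tropomyosins Tpm1, Tpm2, Tpm3 and Tpm4. Each was matched to 1 row of the deposited tables through its Ensembl gene ID, giving 8 genes out of 18437 mRNAs that have a row in at least 1 table. The measurement was Ribo-seq, in which mRNA fragments held by translating ribosomes are sequenced, and the value is the RPKM, the reads on a coding sequence (CDS) scaled by its length and by the library's total. The libraries came from untreated WT C57BL/6J mice that were 4 weeks old. There were 6 libraries, labelled heart, lung, kidney, brain, colon and small intestine, each made from whole tissue with all its cell types. How many animals were used per library is not given in the sources used here.

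In striated muscle, tropomyosin lies end to end along the actin filament and blocks the sites that myosin binds. Troponin T ties the complex to tropomyosin, troponin I holds the filament in the blocked state, and troponin C releases it when it binds calcium. Outside striated muscle there is little troponin, and tropomyosins stabilise the actin filaments of smooth muscle and of the cytoskeleton. The fetal heart uses the slow skeletal troponin I of Tnni1 and changes to the cardiac form of Tnni3 around and after birth.

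Marker genes went against 4 of the 6 labels, so each library is called by its label in what follows. All 5 heart muscle markers were highest in the library labelled heart and all 4 lung markers in that labelled lung. By contrast, all 4 brain markers were highest in the library labelled small intestine, all 4 kidney markers in that labelled colon, and all 4 small intestine markers in that labelled brain. Of the 4 colon markers, 3 were highest in the library labelled kidney and 1, Krt20, in that labelled brain. Between 4504853 and 10635031 reads were recovered per library. A single mRNA, Kri1, took between 0.400% and 22.1% of them, which lowers the RPKM of every other mRNA in the library without changing their ratios. No test between tissues was possible with 1 library each. Intervals are 95% intervals of counting error and leave out the spread between animals.

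In the library labelled heart, Tpm1, Tnni3, Tnnt2 and Tnnc1 were among the 15 most highly translated mRNAs, while Tnni1 had 5 reads. Tpm2 was highest in the libraries labelled brain and kidney, and Tpm4 in that labelled lung. Tpm3 had 1 read over all 6 libraries.

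**Figure D1:**
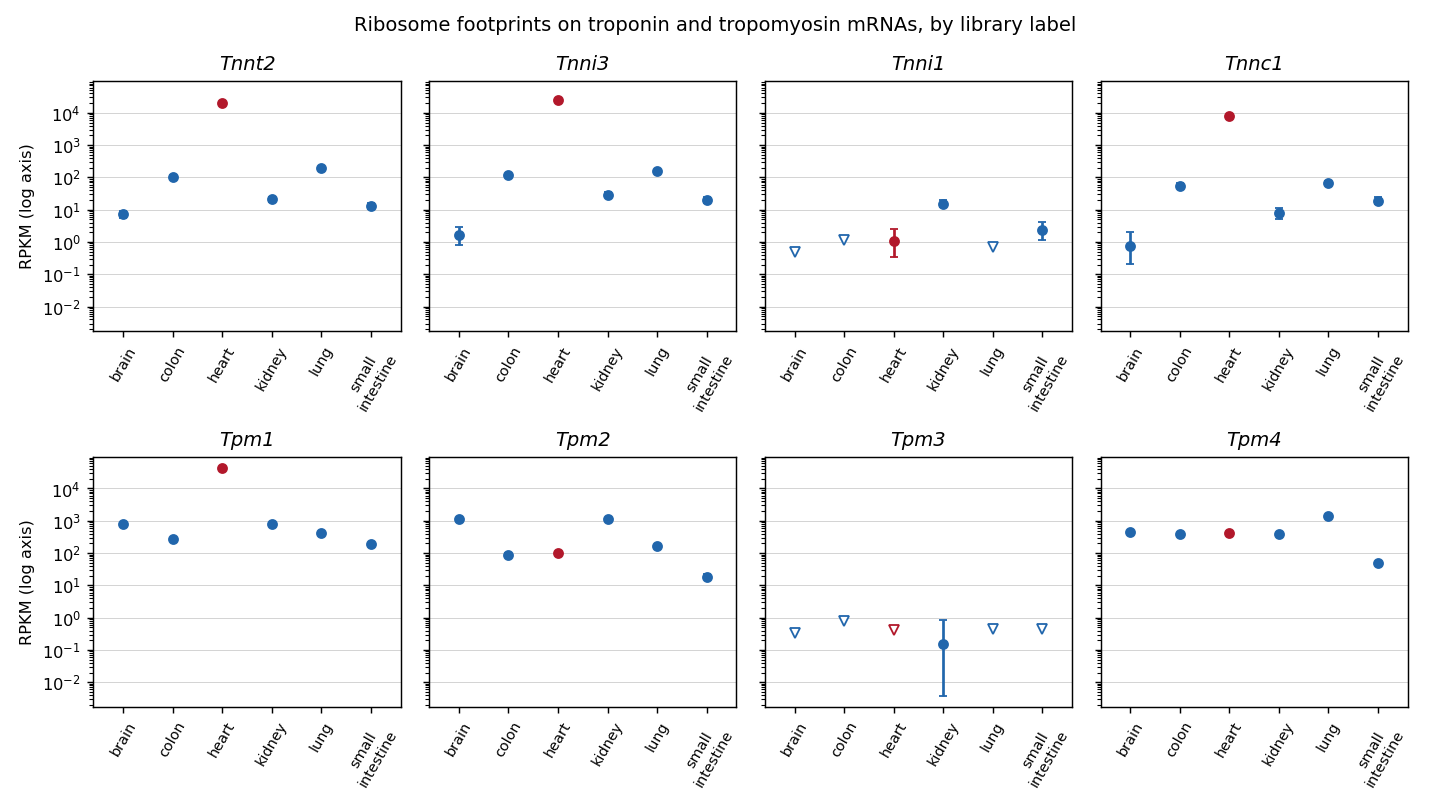
RPKM of each gene (log axis) in the 6 libraries, named by label, with heart in red. Bars are 95% Poisson intervals and open triangles mark libraries with no reads, drawn at the RPKM that 3 reads would give. Tnnt2, Tnni3, Tnnc1 and Tpm1 stood far above the other libraries in heart, from 8196 RPKM for Tnnc1 to 42604 RPKM for Tpm1.

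Tnnt2, the cardiac troponin T (chr1:135763738-135780315 on GRCm39, plus strand), was translated at 20788 RPKM in the library labelled heart, where it ranked 5 among 14670 mRNAs with reads and took 1.88% of all reads. Its level was 193 RPKM in the library labelled lung, 105 RPKM in colon, 20.8 RPKM in kidney, 13.3 RPKM in small intestine and 7.26 RPKM in brain. The heart level was thus 108-fold above the next library (interval 102 to 114), or 168-fold with median-of-ratios size factors, and each step of the order below it also exceeded counting error. In whole tissues, fewer cells of a type and less translation per cell cannot be told apart.

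Tnni3, the cardiac troponin I (chr7:4521300-4527228, minus strand), reached 24269 RPKM in the library labelled heart, where it ranked 4. It was measured at 156 RPKM in lung, 117 RPKM in colon, 29.4 RPKM in kidney and 19.8 RPKM in small intestine. The library labelled brain held 11 reads, or 1.63 RPKM. The order of the libraries was the one seen for Tnnt2, and heart was 155-fold above lung (interval 145 to 167), or 241-fold with size factors.

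Tnnc1, the troponin C shared by heart and slow skeletal muscle (chr14:30930232-30933708, plus strand), was lower than its partners, at 8196 RPKM and rank 15 in the library labelled heart. The library labelled lung held 67.0 RPKM and that labelled colon 55.6 RPKM, a ratio of 1.20 whose interval, 0.965 to 1.51, included equal levels and whose direction turned with median-of-ratios size factors (49.4 against 50.9). The small intestine label gave 19.2 RPKM, kidney 7.64 RPKM and brain 0.779 RPKM, the last from 4 reads. The heart level was 122-fold above lung (interval 108 to 139), or 184-fold above colon, the next library with size factors.

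Tnni1, the slow skeletal troponin I (chr1:135707172-135738727, plus strand), had another pattern. Only 5 reads were counted in the library labelled heart, or 1.09 RPKM, against 66 reads and 15.5 RPKM in the library labelled kidney and 10 reads and 2.33 RPKM in that labelled small intestine. It was not listed in brain, colon or lung, where 3 reads would have given 0.503, 1.19 and 0.692 RPKM. The kidney level was 6.65-fold above small intestine (interval 3.40 to 14.5), and the values of small intestine and heart could not be separated by counting error.

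The relative use of Tnni1 and Tnni3 was read from their ratio within a library, which does not depend on the total. In the library labelled heart, Tnni1 stood at 0.00449% of the Tnni3 level (interval 0.00146 to 0.0105%), so that Tnni3 was 22282-fold above Tnni1. The same ratio was 52.8% in the library labelled kidney (interval 38.8 to 71.2%) and 11.8% in that labelled small intestine (interval 5.46 to 22.6%), where both genes were low. In brain, colon and lung no Tnni1 read was found beside 11, 333 and 765 reads of Tnni3.

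Reads of both troponin I genes can be told apart. Over 4 coding exons that have equal lengths in the 2 genes, 441 bases in all, 63.5% of positions were identical. Matched exactly, no 30-nt window of either CDS was found in another mRNA. The first 30 bases of the longest of these exons, 177 bases long, are shown as an example of how far the 2 genes differ there. Bases that differ between the genes are in capitals. Tnni3 lies at chr7:4522544-4522573 (minus strand) and Tnni1 at chr1:135736371-135736400 (plus strand) on GRCm39.
Tnni3: atTGCAgaTctgaCCcAgaagAtCTATgac
Tnni1: atCAAGgaCctgaAGcTgaagGtGCTGgac
These windows differ at 13 of 30 positions. Tnni3 also has a coding exon of 87 bases near its start that has no counterpart of that length in Tnni1, which encodes most of the N-terminal extension particular to the cardiac protein. Its first 30 bases (chr7:4524872-4524901, minus strand) read as follows.
Tnni3 extension: gctggggaaccgcagcctgcgcctgctcct

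Tpm1, the main tropomyosin of the heart (chr9:66929870-66956953, minus strand), was the second most translated mRNA of the library labelled heart, with 42604 RPKM and 4.17% of all reads. The libraries labelled kidney and brain held 807 and 804 RPKM, a ratio of 1.00 with an interval from 0.972 to 1.04. This near equality depended on the scaling. Kidney was ahead with 1037 against 820 with Kri1 left out of the total, and with 927 against 771 with size factors. Lung followed with 426 RPKM, colon with 265 RPKM and small intestine with 185 RPKM. Tpm1 was thus 52.8-fold higher in heart than in the next library (interval 51.4 to 54.1), and unlike the troponins it had at least 1167 reads in every library.

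Tpm2, the beta-tropomyosin of skeletal and smooth muscle (chr4:43514697-43524949, minus strand), was far below Tpm1 in the heart library, where it ranked 1042 among 14670 mRNAs with reads. Its highest values were 1147 RPKM under the brain label and 1132 RPKM under the kidney label, and the interval of their ratio, 0.984 to 1.04, included equal levels. It stood at 163 RPKM in lung, 103 RPKM in heart, 89.1 RPKM in colon and 18.4 RPKM in small intestine. The heart level was 0.0895 of the highest library. Which of the brain and kidney labels came first depended on the scaling: with Kri1 left out of the total, kidney was ahead with 1453 against 1171 RPKM.

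The 2 libraries with the highest Tpm2 were also the highest for 6 of 8 smooth muscle markers, Acta2, Actg2, Cnn1, Lmod1, Myh11 and Tagln. The other two, Des and Smtn, were highest in the library labelled heart, with 738 and 88.1 RPKM. Des stood at 173 RPKM under the kidney label and 80.7 RPKM under the brain label, and Smtn at 13.9 and 22.5 RPKM, where kidney was below lung and colon. Myh11, the smooth muscle myosin heavy chain, was measured at 1095 RPKM under the kidney label and 880 RPKM under the brain label, and between 7.40 and 70.2 RPKM in the other 4. The summed RPKM of 8 smooth muscle markers was 3386 in brain and 4657 in kidney, against 1421 in heart, 610 in lung, 322 in colon and 38.5 in small intestine, with no marker at 0 in any library. Whether the amount of smooth muscle in each tissue piece set the Tpm2 level was not tested.

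Tpm4, a tropomyosin of the cytoskeleton (chr8:72884018-72906987, plus strand), varied least among the tropomyosins with enough reads. Its level was 1438 RPKM in the library labelled lung, 444 RPKM in brain, 417 RPKM in heart, 396 RPKM in kidney, 387 RPKM in colon and 48.4 RPKM in small intestine. Lung was 3.24-fold above the next library (interval 3.11 to 3.37). Heart and kidney, and likewise kidney and colon, could not be separated by counting error, and the order of brain, heart and kidney changed with the scaling.

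Tpm3 (chr3:89979949-90008226, plus strand), which encodes tropomyosins of slow muscle and of the cytoskeleton, had a single read, in the library labelled kidney, or 0.154 RPKM. It was not listed in the other 5 libraries, where 3 reads would have given between 0.330 and 0.779 RPKM. The way reads were counted bears on this value. Reads found at several positions were discarded, and 594 of the 855 30-nt windows of the counted Tpm3 CDS (69.5%) also occur in Tpm3-rs7, a gene with 1 coding exon on chromosome 14. Over the last 7 coding exons, 612 bases in all, Tpm3 and Tpm3-rs7 were 100% identical. The 261 windows that are unique to the counted Tpm3 CDS held no more than the 1 read in kidney. Coding exons 1 and 2 of that CDS are each held whole by only 2 of 27 complete isoforms.

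**Figure D2:**
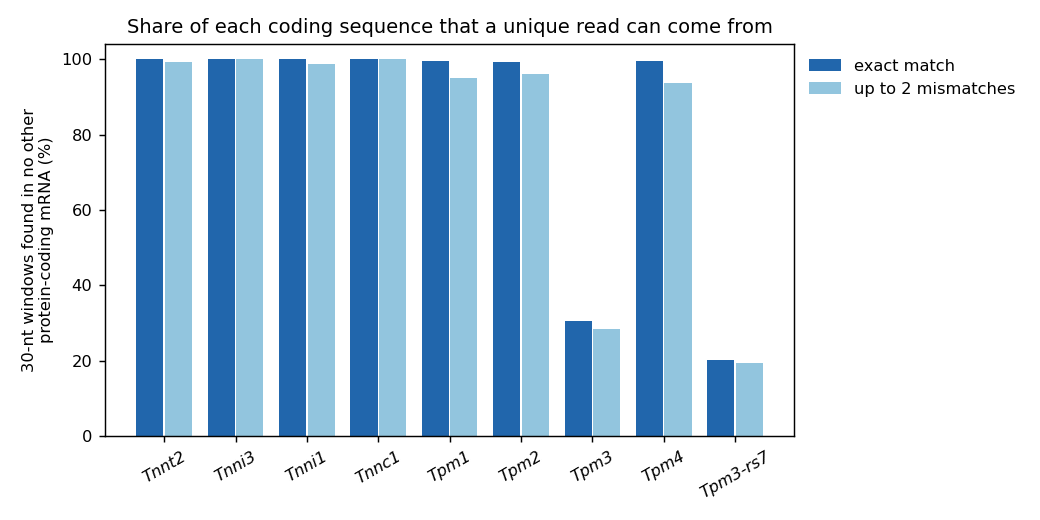
Percent of the 30-nt windows starting on each CDS that occur in no other protein-coding mRNA, matched exactly or with up to 2 mismatches. The troponins and Tpm1, Tpm2 and Tpm4 were above 93% in either case, against 30.5% for Tpm3 and 20.2% for Tpm3-rs7 with exact matching.

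Tpm3-rs7 itself received 264 reads in the library labelled lung, 102 in kidney, 52 in colon, 36 in heart, 31 in small intestine and 7 in brain. A shorter isoform of Tpm3 with a CDS of 744 bases differs from Tpm3-rs7 at 3 positions only, G72A, G98A and G127A, counted from the first base of the CDS with the Tpm3 base first. These positions lie in a first coding exon that the counted Tpm3 CDS lacks. With up to 2 mismatches allowed, reads of that isoform and reads of Tpm3-rs7 cannot be told apart there. The stretch around the second position is shown with the differing base in capitals, at chr3:89987121-89987150 (plus strand) for Tpm3 and chr14:113552190-113552219 (plus strand) for Tpm3-rs7.
Tpm3 shorter isoform: ccgagcgcctccagcGggaagtggagggag
Tpm3-rs7: ccgagcgcctccagcAggaagtggagggag
Per unique window, of which Tpm3-rs7 has 150, these reads came on the RPKM scale to 228 in lung, 89.7 in kidney, 77.0 in colon, 29.3 in heart, 27.0 in small intestine and 4.39 in brain. The level of Tpm3 in these tissues is therefore not given by its own row.

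The other tropomyosins could be separated. Over the last 7 coding exons, which have equal lengths in all 4 genes, identity was between 69.4% (Tpm1 and Tpm2) and 77.6% (Tpm1 and Tpm4). The start of the exon of 118 bases is given as an example of how far 30 bases distinguish them, with bases that differ from Tpm1 in capitals. The positions on GRCm39 are chr9:66941246-66941275 (minus strand) for Tpm1, chr4:43519477-43519506 (minus strand) for Tpm2, chr3:89994762-89994791 (plus strand) for Tpm3, chr8:72897294-72897323 (plus strand) for Tpm4 and chr14:113552374-113552403 (plus strand) for Tpm3-rs7.
Tpm1: aggcatgaaagtcattgaaagccgagccca
Tpm2: aggAatgaaGgtcattgaaaAccgGgccAT
Tpm3: aggTatgaaGgtGattgaaaATcgGgcTcT
Tpm4: aggcatgaaGgtAatAgaGaAccgagccAT
Tpm3-rs7: aggTatgaaGgtGattgaaaATcgGgcTcT
Tpm2 differs from Tpm1 at 6 of these 30 bases, Tpm4 at 7 and Tpm3 at 8, whereas the lines of Tpm3 and Tpm3-rs7 are the same.

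Of the 8 genes, 7 had 30 reads in at least 1 library and Tpm3 did not. Among these 7, 4 were highest in the library labelled heart by 4-fold or more, namely Tnnt2, Tnni3, Tnnc1 and Tpm1, against 2.5% of the 13864 mRNAs tested in the same way. Tnni1 was highest by 4-fold in the library labelled kidney, against 0.967% of all mRNAs. It reached 30 reads in that library only, so the filter itself favoured this call, and the share does not set it apart. Tpm2 and Tpm4 were not highest by 4-fold in any library, where the share of mRNAs called was 2.45% for the brain label, 2.43% for colon, 5.09% for lung and 9.53% for small intestine. The median ratio of heart to the highest other library was 52.8 over the 7 genes and 0.254 over all mRNAs tested. The 7 genes were split, so this median, the value of Tpm1, does not describe them all. The 4 called in heart lay between 52.8 and 155, whereas Tnni1 stood at 0.0702, Tpm2 at 0.0895 and Tpm4 at 0.290.

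None of the 7 had a range below 4-fold between the highest and lowest library, against 13.8% of all mRNAs. The highest library was 14852-fold above the lowest for Tnni3, 10525-fold for Tnnc1, 2861-fold for Tnnt2, 230-fold for Tpm1, 62.3-fold for Tpm2 and 29.8-fold for Tpm4. For Tnni1 it was at least 30.9-fold, with libraries without reads set to 3 reads. The median range of all mRNAs tested was 25.1-fold.

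The share of each gene in the summed tropomyosin RPKM compares Tpm1, Tpm2 and Tpm4 within a library. It is not the full make-up of a tissue, because the level of Tpm3 is not given by its own row. In the library labelled heart, Tpm1 made up 98.8%, Tpm4 0.967% and Tpm2 0.238%. The libraries labelled brain and kidney resembled each other: Tpm2 made up 47.9% and 48.5%, Tpm1 33.5% and 34.6%, and Tpm4 18.6% and 17.0%. Tpm4 had the largest share in the library labelled lung with 70.9%, and in that labelled colon with 52.2%, where Tpm1 made up 21.0% and 35.8%. In the library labelled small intestine, where brain markers were highest, Tpm1 made up 73.5%, Tpm4 19.2% and Tpm2 7.32%. Tpm3 entered with 1 read, and its true share is not known. Of its windows, 69.5% also occur in Tpm3-rs7, and only 2 of 27 isoforms hold its first counted coding exon whole.

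**Figure D3:**
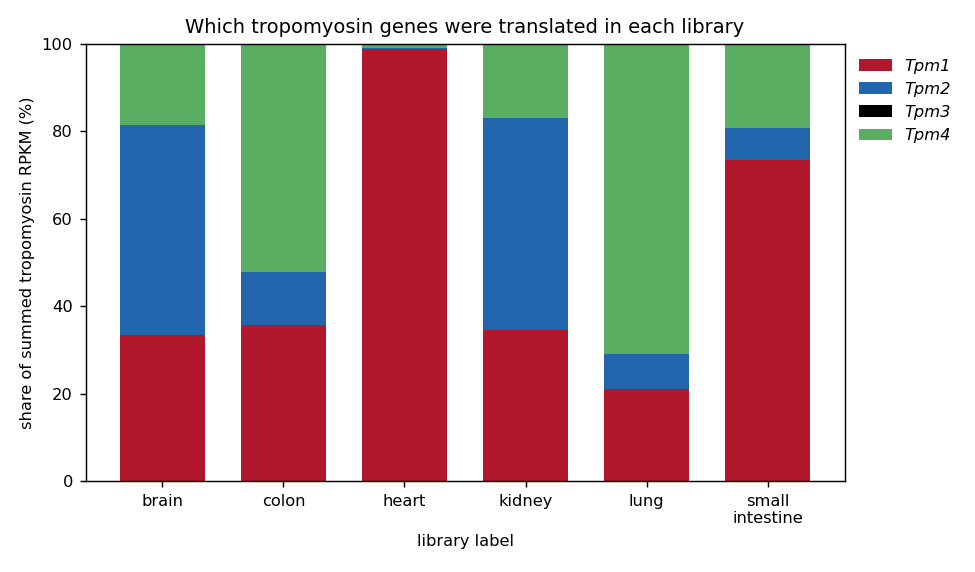
Share of Tpm1, Tpm2, Tpm3 and Tpm4 in the summed tropomyosin RPKM (%) of each library, named by label. Tpm1 fills 98.8% of the heart bar, Tpm2 leads in brain and kidney, and Tpm4 leads in colon and lung. Tpm3 is too low to be seen.

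The sum of the 4 genes was 43124 RPKM in the library labelled heart, 2395 RPKM in brain, 2335 RPKM in kidney, 2028 RPKM in lung, 741 RPKM in colon and 252 RPKM in small intestine, with brain and kidney changing places under both other scalings. Reads that match both Tpm3 and Tpm3-rs7 are missing from this sum. In each of the 6 libraries, heart included, the sum exceeded the level of every troponin gene.

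The thin filament repeats a unit of 7 actins, 2 tropomyosin chains and 1 each of troponin T, I and C. Dividing the RPKM in the library labelled heart by these copies gave 20788 for troponin T, 21562 for tropomyosin, 24269 for troponin I, 8196 for troponin C and 385 for Actc1, the cardiac actin. Relative to troponin T, tropomyosin stood at 1.04 (interval 1.03 to 1.04) and troponin I at 1.17 (interval 1.16 to 1.18). Troponin C stood at 0.394 (interval 0.390 to 0.399), and actin at 0.0185 (interval 0.0183 to 0.0188). With the counted CDS lengths, tropomyosin and the T and I subunits were thus within 1.17-fold of each other per copy. Troponin C and, by far more, actin lay below.

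**Figure D4:**
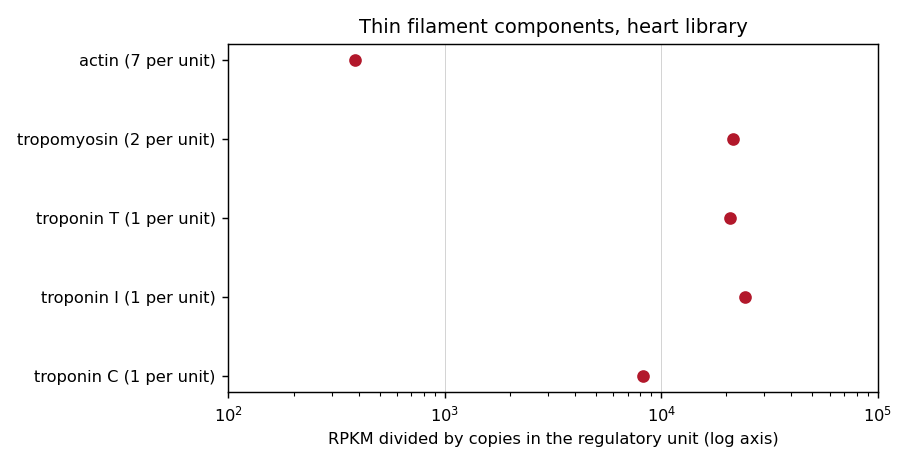
RPKM in the library labelled heart divided by the copies of each component in the regulatory unit (log axis). Bars, mostly hidden by the points, are 95% counting intervals. Tropomyosin and troponin T and I lie between 20788 and 24269, troponin C at 8196 and actin at 385.

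Of the 30-nt windows of Actc1, 98.6% were found in no other mRNA when matched exactly, and 68.3% when up to 2 mismatches were allowed. The cause of the low actin value was not tested. Adding Acta1, the skeletal actin, raised actin to 0.0190 of troponin T. The counted Tpm1 CDS has 978 bases because it holds a pair of second exons of 126 bases each. Of 44 complete coding isoforms of Tpm1 in GENCODE M39, 31 hold 1 of the pair, 11 neither and 2 both. With a length of 852 bases, that is without 1 of the pair, tropomyosin stood at 1.19 of troponin T in place of 1.04. This allows for 1 exon only. The last counted coding exon, of 80 bases, is held whole by 7 of the 44 isoforms. The other isoforms hold a median of 77.7% of the counted CDS. Which isoforms were translated was not tested.

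Low levels of the cardiac troponins appeared in libraries of other labels, and their ratios to each other were compared with heart. Tnni3 over Tnnt2 was 1.17 in the library labelled heart, 1.11 in colon (interval 0.962 to 1.29), 1.41 in kidney (interval 1.11 to 1.79), 1.49 in small intestine (interval 1.11 to 2.01) and 0.811 in lung (interval 0.741 to 0.887). Tnnc1 over Tnnt2 was 0.394 in heart, 0.367 in kidney and 0.347 in lung. It was higher in colon, at 0.530 (interval 0.430 to 0.650), and in small intestine, at 1.45 (interval 1.05 to 1.99). The library labelled brain differed in both, with 0.225 for Tnni3 (interval 0.107 to 0.428) and 0.107 for Tnnc1 (interval 0.0284 to 0.287). Myh6, the cardiac myosin heavy chain, stood at 0.318 of Tnnt2 in heart and between 0.332 and 0.400 in colon, kidney, lung and small intestine. The intervals of colon (0.352 to 0.441) and lung (0.375 to 0.426) lay above the heart value. In brain, Myh6 stood at 0.0980 of Tnnt2 (interval 0.0656 to 0.145). Actc1 over Tnnt2 did not keep its heart ratio in any library. It was 0.130 in heart, 0.981 in colon (interval 0.862 to 1.12), 0.458 in brain, 0.387 in kidney, 0.287 in small intestine and 0.0439 in lung (interval 0.0343 to 0.0555).

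As a share of their heart level, Tnnt2, Tnni3 and Tnnc1 stood at 0.504%, 0.481% and 0.679% in the library labelled colon, and at 0.927%, 0.644% and 0.817% in that labelled lung. In the library labelled kidney they stood at 0.100%, 0.121% and 0.0933%. All 5 heart muscle markers had reads in every library. Their summed RPKM was 25354 in heart, 166 in colon, 92.7 in lung, 35.2 in kidney, 23.9 in small intestine and 4.14 in brain. The libraries labelled colon and lung, which held the most troponin outside heart, thus also had the highest of these sums outside heart. Single markers did not all follow. Myh6 and Mybpc3 were higher in colon and lung than in kidney, small intestine and brain. Ryr2, however, was highest outside heart in small intestine, at 9.04 RPKM. Myl2 in lung, at 3.43 RPKM, was below kidney and small intestine. Actn2 stood at 2.57 RPKM in colon and 2.73 RPKM in small intestine.

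The library labelled lung differed from that labelled colon in which heart markers it held. The summed RPKM of the 4 atrial markers Myl7, Sln, Nppa and Myl4 was 1160 in lung and 68.4 in colon, against 13109 in heart. Myl7, the atrial regulatory light chain, was at 8.55% of its heart level in lung and at 0.424% in colon. Myl2, the ventricular regulatory light chain, was at 0.0198% in lung and at 0.650% in colon. Sln had no reads in lung. Whether heart tissue or its RNA was present in these preparations was not tested.

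**Figure D5:**
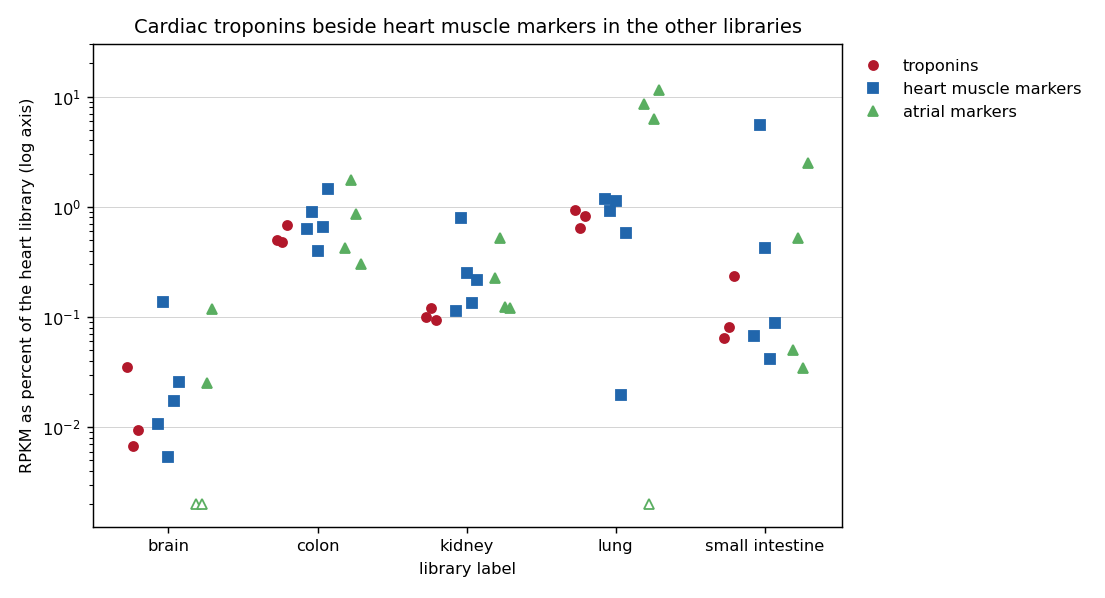
RPKM as percent of the library labelled heart (log axis) for the troponins Tnnt2, Tnni3 and Tnnc1, 5 heart muscle markers and 4 atrial markers in the other 5 libraries. Open symbols at the lower edge had no reads. The troponins lie between 0.481% and 0.927% in colon and lung, and 3 atrial markers lie above them in lung.

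Tpm1 followed the troponins in some libraries only. Its level over that of Tnnt2 was 2.05 in heart, 2.21 in lung (interval 2.07 to 2.36) and 2.53 in colon (interval 2.26 to 2.83). It was 13.9 in small intestine (interval 11.3 to 17.4), 38.8 in kidney (interval 32.9 to 46.1) and 111 in brain (interval 87.5 to 142). The ratio was therefore highest in the 2 libraries with the highest Myh11.

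The other genes of the thin filament were read from lists of related genes. Of the other troponins, the skeletal Tnnt1, Tnnt3, Tnni2 and Tnnc2, 3 were tested and Tnnt3, with at most 27 reads, was not. None of the 3 was highest in heart by 4-fold, a count that the background of 2.5% does not set apart. Tnnt1, the slow skeletal troponin T, was measured at 88.3 RPKM in the library labelled heart and 68.1 RPKM in that labelled small intestine, and Tnni2, the fast skeletal troponin I, at 13.0 RPKM in heart and 20.8 RPKM in lung. Tnnc2, the fast skeletal troponin C, had 20.5 RPKM in lung and no reads in heart. The skeletal troponins were therefore far below their cardiac counterparts in the heart library.

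Among 6 actins, only Actc1 was highest in heart by 4-fold, against 2.5% of all mRNAs, with 2694 RPKM against 103 RPKM in colon. Of 12 genes that cap or set the length of thin filaments, 5 were called in heart, again against 2.5% of all mRNAs: Tmod1, which caps the pointed end, with 260 RPKM; the leiomodins Lmod2, which elongates the filament there, with 445 RPKM, and Lmod3 with 119 RPKM; Nebl, a Z-disc protein, with 157 RPKM; and Tmod4 with 4.72 RPKM. Of these, Lmod2, Lmod3 and Tmod4 reached 30 reads in heart only, so the filter on reads favoured their calls. Tmod2, the neuronal tropomodulin, was instead highest in the library labelled small intestine with 148 RPKM, and Tmod3, the ubiquitous one, in lung with 141 RPKM. Of 4 kinases and regulators linked to the complex, 3 were called in heart, against the same 2.5%: Pln, the inhibitor of the calcium pump, with 736 RPKM, the thick filament gene Mybpc3 with 577 RPKM and the kinase gene Tnni3k with 29.5 RPKM. Pln and Tnni3k likewise reached 30 reads in heart only. Prkaca, a catalytic subunit of protein kinase A, which phosphorylates troponin I, had 340 RPKM in heart and 202 RPKM in small intestine.

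None of the 8 partners of tropomyosin and actin outside sarcomeres was highest in heart by 4-fold, a count that the 2.5% of all mRNAs called there does not set apart. Cald1, the actin-binding caldesmon, ranged from 18.0 RPKM in small intestine to 384 RPKM in lung, and Cnn1, the smooth muscle calponin, reached 351 RPKM in kidney and 167 RPKM in brain. Myh9, a non-muscle myosin heavy chain, was highest in lung with 897 RPKM, the library where Tpm4 was highest, and stood at 61.3 RPKM in heart.

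The mRNAs with the nearest pattern to each gene were found by the root mean square difference of centred log2(RPKM + 1) over the 6 libraries. Myh6 was nearest to Tnnt2 (difference 0.34) and to Tnni3 (0.49), and Tnni3 was nearest to Tnnc1 (0.59). Casq2, which stores calcium in the sarcoplasmic reticulum, was nearest to Tpm1 (0.45), followed by the M-band gene Myom1 (0.55). For Tpm2 the nearest were Atp8b1 (0.47) and the smooth muscle gene Tagln (0.50). For Tpm4 they were Ifitm2 (0.17) and Vcl (0.21), which encodes the adhesion protein vinculin, and for Tnni1, which had few reads, Lpo (0.20). These are descriptions over 6 points that share library totals.

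The promoters of these genes were searched for motifs of muscle transcription, in the 300 bases from 250 before to 50 after each start site in the RefSeq tables (build GRCm38.p6), on both strands. All 8 genes were matched. M-CAT, CATTCC, the element that TEAD factors bind, was found in 3 of the 8, Tnnt2, Tnnc1 and Tpm1, against 16.6% of all 27025 genes. All 3 were among the 4 called in heart, but the share of M-CAT among all mRNAs called there was not measured. A link of the motif to the heart level was not tested. They are shown with the motif in capitals, which reads GGAATG where it lies on the other strand, at chr1:135836295-135836324 (plus strand), chr14:31208242-31208271 (plus strand) and chr9:67049252-67049281 (minus strand) on GRCm38.p6.
Tnnt2: tctcctgctgcaCATTCCtccctccgcggg
Tnnc1: tgggctgggctgGGAATGtagcaggaggtg
Tpm1: tggctgtcctaaGGAATGcggtcgcccccc
A GATA motif, AGATAA, was found in 2 of the 8, Tnnt2 and Tpm3, against 12.7% of genes, and an E-box, CANNTG, in 8 of 8, against 75.0%. Neither a CArG box (1.81% of genes) nor a MEF2 site (2.16%) was found in these windows in any of the 8.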

How the data were processed

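Ribo-seq libraries of 6 mouse tissues, 1 each, were analysed. The authors deposited RPKM values for each protein-coding mRNA, the transcript with the longest CDS of each gene. According to the study's methods, written for macrophages and assumed to apply to tissues, adapters were removed with Cutadapt, reads under 15 nt were dropped, STAR was used to align to GRCm39 mRNAs, and reads with several positions or over 2 mismatches were left out. RPKM times CDS length was a whole multiple of 1 read for 100% of values, to within 0.001 of a read, which recovered the reads. Counting intervals are exact Poisson or binomial, by the delta method for sums and shares, at 95%. They do not cover animals or PCR copies. An mRNA was tested with 30 reads in at least 1 library, and 0 reads were set to 3. Calls in 1 library needed 4-fold over the next. Unique 30-nt windows were counted in 21594 GENCODE M39 mRNAs, a later annotation than the authors', with 1 mRNA per gene. The members, lists and rules were chosen with earlier results of these data known. The named genes were the 8 members, genes of the lists and markers, and the 3 nearest patterns of each member, of which some are given. Tpm3-rs7, Kri1 and the Tpm1 length were added after values were seen. Read recovery, intervals and window counts were tested on simulated data. Alternatives covered scaling, fold, filter, length and the genes summed. The tools were pandas 2.3.3, scipy 1.17.1 and numpy 2.4.6 under Python 3.11.15, with matplotlib 3.10.9 for plots.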

Additional observations from a re-analysis of the deposited data

How the results depend on the processing

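The 4 genes called highest in the library labelled heart and the absence of a gene with a range under 4-fold were the same at 2-fold and 10-fold, with Kri1 left out of the total and with median-of-ratios size factors, and the first also without the filter on reads. With size factors, the ratio of heart to the highest other library was 168 for Tnnt2, 241 for Tnni3, 184 for Tnnc1 and 0.451 for Tpm4. With Kri1 left out it was 41.5 for Tpm1 and 0.0714 for Tpm2. Summed tropomyosin RPKM with Kri1 left out was 2445 in brain, 795 in colon, 43579 in heart, 2999 in kidney and 293 in small intestine. With size factors it was 2299, 679, 49419, 2682 and 295 in these libraries, and 1495 in lung. Per troponin T in heart, tropomyosin was 1.04 per unique window, 1.02 with Tpm1 alone and 1.19 with the shorter Tpm1 length, which was chosen after seeing the data. Actin was 0.0188 per unique window and 0.0190 with Acta1. None of these results changed direction against heart, except for Tpm4. For Tpm4, brain fell below heart with size factors (426 against 478), and kidney rose above heart with Kri1 left out (509 against 422). The order of some neighbouring libraries thus turned with the scaling: lung and colon for Tnnc1, brain and kidney for Tpm2 and for summed tropomyosin, and brain, heart and kidney for Tpm4. No paired analysis was possible because each tissue had 1 library. With 5 reads for Tnni1 and 4 for Tnnc1 in the libraries named, depth limits those ratios.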
